A study of Homo sapiens with 5 samples.

Results

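The SLC25 family holds the carrier proteins that move metabolites, nucleotides, phosphate and cofactors across the inner mitochondrial membrane. The genes described here are the protein-coding rows of the deposited count table whose symbol starts with SLC25A, without SLC25A51. They number 41 of the 16677 genes in the table. A further 13 rows carry an SLC25A symbol but are pseudogenes or non-coding transcripts, and these were used only to judge read sharing. The rule reads gene names and gene types.

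Libraries came from untreated HEK293 cells, a long-established line derived from human embryonic kidney. Of the 5 libraries, 2 are labelled Control with genotype WT, and 3 are labelled rs11607019 for a T-to-C substitution that the series assigns to SIRT3, a gene for a mitochondrial NAD-dependent deacetylase. The Control libraries are called Control 1 and 2 below, and the rs11607019 libraries variant 1, 2 and 3. Whether the libraries of a group are separate clones or repeated cultures of the same clone is not given in the labels, so p-values measure only the spread between these libraries, which may be technical.

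Carriers of this family share a fold built from repeated pairs of membrane helices, and most exchange a substrate on the matrix side for another on the cytosolic side. The ADP/ATP carriers send ATP out of the mitochondrion in return for ADP, and the phosphate carrier brings in the phosphate that ATP synthase needs. Other members run the malate-aspartate shuttle, export citrate for lipid synthesis, bring in iron and cofactors, or carry amino acids. The comparison asks whether the RNA of these carriers differs between the Control and the variant libraries.

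The genes of the ADP/ATP carriers are close copies of each other, which matters for reads of 50 bases. Their coding sequences are each 894 bases long in GENCODE release 29. SLC25A5 is identical to SLC25A6 at 78.7% of these bases and to SLC25A4 at 77.2%. The stretch of 50 bases below is the one in which SLC25A4 and SLC25A6 together are most like SLC25A5. Only stretches within a single exon of each gene were compared, and SLC25A4 was not scored against SLC25A6. It covers coding bases 62 to 111 and lies in exon 1 of each gene. It is shown with the matching stretch of SLC25A5P2, a processed pseudogene of SLC25A5. Capitals mark bases that differ from SLC25A5.
SLC25A5 (chrX:119468577-119468626, forward strand): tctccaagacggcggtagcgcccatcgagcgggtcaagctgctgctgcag
SLC25A4 (chr4:185143434-185143483, forward strand): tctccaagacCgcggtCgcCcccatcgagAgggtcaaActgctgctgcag
SLC25A6 (chrX:1391899-1391948, reverse strand): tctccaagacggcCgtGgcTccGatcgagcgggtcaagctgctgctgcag
SLC25A5P2 (chr2:33840568-33840617, reverse strand): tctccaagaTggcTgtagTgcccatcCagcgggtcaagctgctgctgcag
Even here SLC25A4 differs from SLC25A5 at 5 bases, and SLC25A6 and the pseudogene each differ at 4 bases.

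Exact sharing was counted over every 50-base stretch of each member's principal transcript. For SLC25A5, 4.57% of the stretches also occurred in a transcript of a gene elsewhere in the genome, spread over 5 genes, and for SLC25A6 the share was 0.944%, all of it in the pseudogene SLC25A6P2. SLC25A4 shared none. The largest share was 21.6% for SLC25A33, and SLC25A53 had 5.52% and SLC25A38 had 4.19%. All other members were under 3%. The 7 SLC25A5 pseudogenes in the table held between 3 and 175 counts each in a library, against 6890 to 12931 for SLC25A5. SLC25A6 lies in the pseudoautosomal region, which has an identical copy on the Y chromosome, so its counts also depend on how that copy was treated, which is not stated. SLC25A10 shared 63.9% of its stretches with AC139530.2, an overlapping gene on the same strand, and its level is uncertain for that reason. Other members also shared stretches with overlapping genes, counted on either strand. Among them were SLC25A21 (33.5%), SLC25A25 (18.0%), SLC25A29 (15.2%) and SLC25A5 (14.7%). SLC25A29 shares 99 exon bases with AL157871.6 on the same strand.

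Depth was even, with total counts between 17122569 and 17596084. All 41 members passed the filter on low counts, and their sum ran from 3302 to 3857 CPM (counts of a gene relative to the total of its library, with totals scaled by TMM, the trimmed mean of M-values). Of 10 genes listed as expressed in HEK293, 6 had a row, among them VIM, KRT8, KRT18, PAX2 and LHX1. VIM, the intermediate filament vimentin, stood at 328 to 426 CPM in the Control and 339 to 618 CPM in the variant libraries. Of 12 markers of other cell types, 3 had a row (EPCAM, COL1A1 and ACTA2), with sums of 85.3 to 260 CPM in the Control and 153 to 222 CPM in the variant libraries, so that the groups overlapped for both VIM and this sum. EPCAM, an epithelial adhesion protein, made up most of the sum. ACTA2, smooth muscle actin, had 3.73 and 5.53 CPM in the Control libraries and 5.20, 13.7 and 11.8 CPM in variant 1, 2 and 3, a log2 fold change of 1.14 at an unadjusted p of 0.0208 and an adjusted p of 0.616 (edgeR). Variant 2 and 3 were above both Control libraries, variant 1 was not, and the part of this in the values below was not tested. The other markers were not analysed here. SIRT3 itself had 28.9 and 29.3 CPM in the Control libraries and 26.5, 15.8 and 30.2 CPM in variant 1, 2 and 3.

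No SLC25A gene passed the threshold. By edgeR's quasi-likelihood test, with p-values adjusted over all 16310 genes tested, 0 of 41 had an adjusted p below 0.05, against 0% of the tested genes, and 0.616 was the smallest among the members. At an unadjusted p under 0.05 there were 3 members (7.32%), SLC25A29, SLC25A6 and SLC25A34, against 7.62% of all tested genes. These 3 were higher in the variant, where 4.11% of tested genes were both higher and under that p, and 3.51% were lower and under it. Without variant 2 the count was 1, SLC25A43, against 4.73% of all genes in that fit. Without variant 1 it was 4, with SLC25A25 added to the 3 genes named, against 7.65% of all genes. Without Control 2 it was 2, SLC25A18 and SLC25A33, neither of them among the 3, against 8.73%. It was also 2 without Control 1 and without variant 3 (SLC25A29 and SLC25A6 in each), against 3.34% and 9.999% of all genes. DESeq2's Wald test also called 0 members, with a smallest adjusted p of 0.368 and 4 members at an unadjusted p under 0.05, where it had 7.40% of all genes.

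The groups did not overlap at 9 members, 4 higher and 5 lower in the variant. That is 22% of the members, against 24.8% of all tested genes (11.8% higher and 13% lower), so the share among the carriers was near the share of the table. Of the members, 18 had a positive and 23 a negative log2 fold change of the variant against Control. Their median was −0.04, against 0.003 over all tested genes. Member medians by library, as deviations in log2 CPM from the mean of the 5 libraries, were −0.04 and 0.06 in Control 1 and 2 and −0.07, 0.03 and −0.001 in variant 1, 2 and 3, so the groups overlapped. In these bulk libraries, fewer cells with a transcript and less transcript per cell cannot be told apart.

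**Figure D1:**
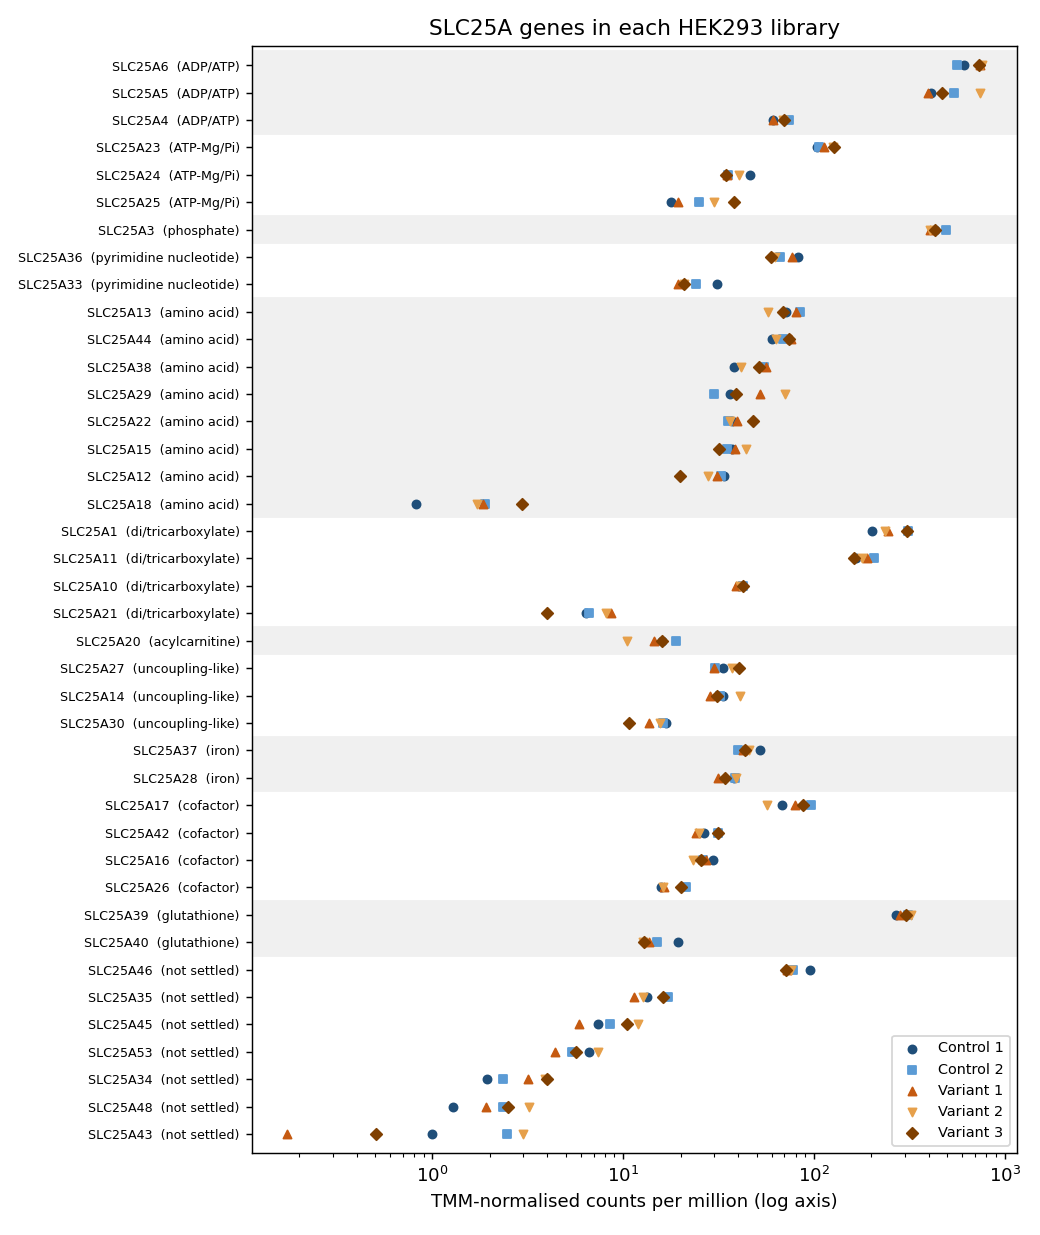
Level of SLC25A genes in each library, as TMM-scaled CPM on a log axis, with genes grouped by substrate (grey and white bands) and 1 symbol per library. SLC25A6, SLC25A5 and SLC25A3 stand highest, and for most genes the 2 Control and 3 variant symbols are mixed.

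Of the ADP/ATP carriers, SLC25A6 and SLC25A5 had the highest CPM of all members. SLC25A6 (ENSG00000169100, chrX:1386152-1392724, reverse strand), a ubiquitous form, had 613 and 559 CPM in the Control libraries and 745, 761 and 737 CPM in variant 1, 2 and 3. All variant libraries lay above both Control libraries. Group levels were 586 ± 37.8 CPM in the Control libraries (SD, n = 2) and 748 ± 12.4 CPM in the variant libraries (SD, n = 3), a log2 fold change of 0.35 (SE 0.13, 95% interval 0.07 to 0.63) and an adjusted p (edgeR) of 0.616. With gene-wise offsets that take out trends with GC content and length of transcripts, called the GC and length correction below, it was 0.25, and the groups then overlapped.

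SLC25A5 (ENSG00000005022, chrX:119468400-119471319, forward strand), the form known from dividing cells, had 413 and 542 CPM in the Control libraries and 398, 742 and 471 CPM in variant 1, 2 and 3. Variant 2 was the highest library and variant 1 the lowest, so the variant group spanned the Control group on each side. Its log2 fold change was 0.17 (SE 0.25, 95% interval −0.39 to 0.73), at an adjusted p (edgeR) of 0.883. SLC25A4, the form of heart and skeletal muscle, had 61.3 and 74.4 CPM (Control) and 61.2, 68.5 and 69.5 CPM (variant), which differed little between libraries. Its log2 fold change was −0.03, with an interval of −0.40 to 0.34.

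Summed over the 3 genes, ADP/ATP carrier RNA stood at 1086 and 1176 CPM in the Control and 1204, 1572 and 1277 CPM in the variant libraries. The sum was higher in each variant library than in either Control library, and variant 2 stood apart through SLC25A5. Among single genes, the groups did not overlap at 24.8% of all tested genes. The sum was not tested and was not taken again after the GC and length correction, with which the groups overlapped at SLC25A6. As a share of the counts of the 3 genes, SLC25A5 took 38.0% in Control 1 (95% Wilson interval 37.3 to 38.7) and 46.1% in Control 2 (45.4 to 46.8). It took 33.1% in variant 1 (32.4 to 33.7), 47.2% in variant 2 (46.6 to 47.8) and 36.9% in variant 3 (36.2 to 37.5). Only counting error enters these intervals. The share thus differed between libraries of the same group by more than counting error, and the groups overlapped.

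**Figure D2:**
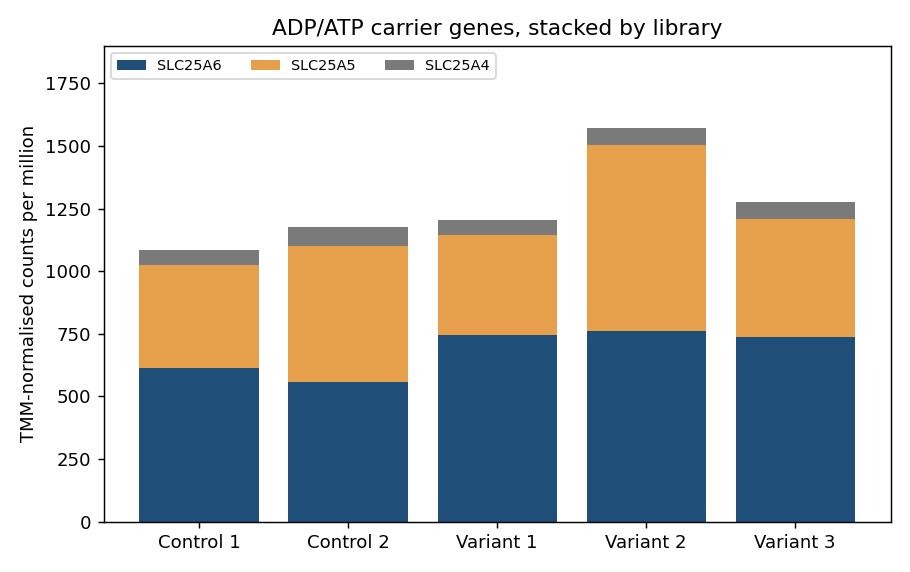
Levels of the 3 ADP/ATP carrier genes in each library, stacked, in TMM-scaled CPM. SLC25A6 lies between 559 and 613 in the Control and between 737 and 761 in the variant libraries, while the tall bar of variant 2 comes from SLC25A5 at 742.

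The 250 bases before the RefSeq start of SLC25A6 and SLC25A5 (GRCh38.p14) are shown because these genes were the most abundant members and only SLC25A6 had groups that did not overlap. Capitals mark CCAAT on either strand.
SLC25A6 (chrX:1392114-1392363, reverse strand): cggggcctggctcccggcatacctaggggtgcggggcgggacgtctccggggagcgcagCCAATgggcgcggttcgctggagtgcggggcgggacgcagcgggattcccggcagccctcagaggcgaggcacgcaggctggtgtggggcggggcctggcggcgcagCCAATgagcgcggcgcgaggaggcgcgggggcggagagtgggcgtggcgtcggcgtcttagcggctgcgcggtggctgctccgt
SLC25A5 (chrX:119468194-119468443, forward strand): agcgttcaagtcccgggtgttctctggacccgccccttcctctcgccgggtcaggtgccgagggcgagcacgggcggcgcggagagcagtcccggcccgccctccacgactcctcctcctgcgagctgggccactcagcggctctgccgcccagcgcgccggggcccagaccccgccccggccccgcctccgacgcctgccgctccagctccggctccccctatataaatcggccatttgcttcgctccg
CCAAT occurred at 2 places before SLC25A6 and at none before SLC25A5. Promoters of 300 bases were matched for 36 of the 41 members. Of these, 19 held CCAAT (52.8%), against 36.3% of 15812 protein-coding promoters. The binding motif of NRF1, a factor known for mitochondrial genes (GCGCA, any base, then GCGC), was in 2 (5.56%), before SLC25A3 and SLC25A11, against 8.59% of all. ACCGGAAG, a motif of ETS factors, was in 1 (2.78%), before SLC25A46, against 3.12%. All 3 motifs were searched on both strands and none contains the letters of another. No test was made of these shares, and a match is a description of the letters only.

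Among the carriers of ATP-Mg and phosphate, which load or drain the adenine nucleotide pool of the matrix and respond to calcium, the smallest adjusted p (edgeR) of the 3 measured members was 0.725. SLC25A23 had 104 and 106 CPM in the Control libraries and 113, 126 and 127 CPM in variant 1, 2 and 3. Variant libraries were all above the Control libraries, by a log2 fold change of 0.21 (SE 0.15, 95% interval −0.11 to 0.54) with an adjusted p (edgeR) of 0.730. SLC25A25 had 17.9 and 25.1 CPM in the Control libraries and 19.5, 29.8 and 37.9 CPM in variant 1, 2 and 3, with variant 3 highest and variant 1 among the Control values. Its log2 fold change was 0.43 (SE 0.29, 95% interval −0.21 to 1.08), and with 1 library left out it lay between 0.20 (without variant 3) and 0.70 (without Control 2). Its exons share 665 bases with SLC25A25-AS1 on the other strand, and although the labels name a strand-specific library kit, whether the counting used the strand is not stated. SLC25A25-AS1 had 503 and 358 counts in Control 1 and 2 and 400, 613 and 608 in variant 1, 2 and 3. SLC25A24 ran from 34.7 to 46.2 CPM with a log2 fold change of −0.15.

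The phosphate carrier SLC25A3 (chr12:98593591-98606379, forward strand) had 430.4 and 491 CPM in the Control libraries and 404, 407 and 431 CPM in variant 1, 2 and 3. Control 2 was the highest library, and Control 1 lay just under variant 3. The log2 fold change was −0.16 (SE 0.13, 95% interval −0.45 to 0.14), at an adjusted p (edgeR) of 0.779. It was −0.25 without Control 1 and −0.06 without Control 2. Of the carriers of pyrimidine nucleotides, which supply the mitochondrion with precursors for its own DNA and RNA, SLC25A33 had 30.8 and 24.0 CPM in the Control libraries and 19.5, 20.8 and 20.8 CPM in variant 1, 2 and 3. Variant libraries were all below the Control libraries and close together, while the Control libraries were further apart. The log2 fold change was −0.43 (SE 0.19, 95% interval −0.86 to 0.0033), at an adjusted p (edgeR) of 0.657, and it was −0.41 after the GC and length correction. Without Control 1 it was −0.23, and without Control 2 −0.60. SLC25A36 had 82.0 and 66.0 CPM (Control) and 76.9, 62.6 and 59.7 CPM (variant), overlapping between groups, with a log2 fold change of −0.16.

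**Figure D3:**
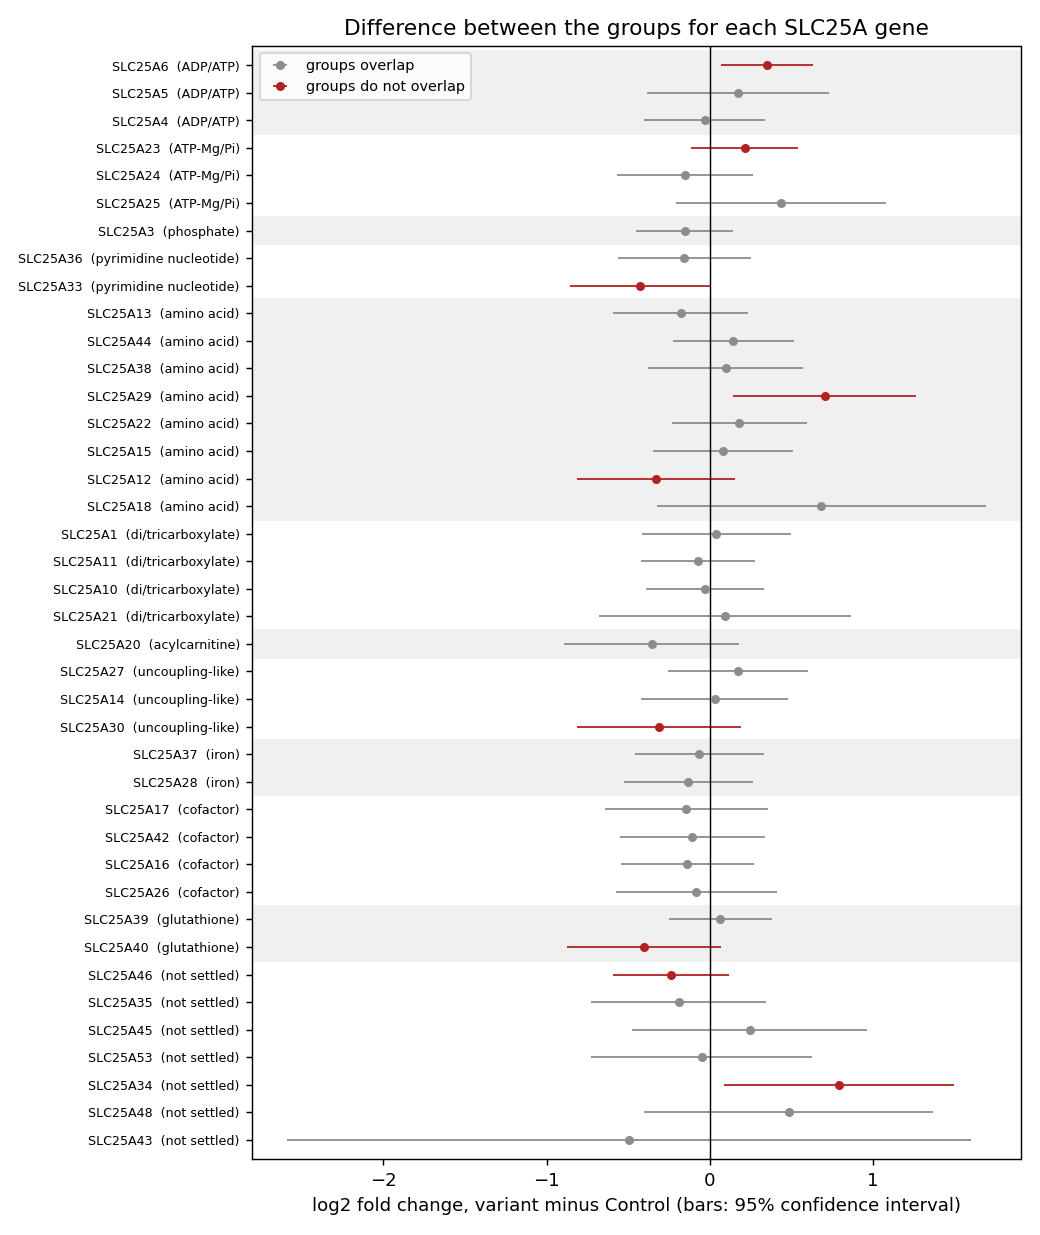
Log2 fold change of the variant against Control for SLC25A genes, with 95% confidence intervals from edgeR's fit, and in red the 9 genes whose groups did not overlap. Intervals of all but 3 genes (SLC25A29, SLC25A6 and SLC25A34) include 0, and SLC25A43, with few counts, has the widest.

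Amino acid carriers had 8 measured members, of which 6 had a positive and 2 a negative log2 fold change, with a median of 0.12. SLC25A29 (ENSG00000197119, chr14:100291111-100306547, reverse strand), a carrier of basic amino acids, had the smallest p of all members. It stood at 36.3 and 29.8 CPM in the Control libraries and 52.1, 70.4 and 38.9 CPM in variant 1, 2 and 3. The groups did not overlap, but variant 3 lay close to Control 1 and variant 2 stood far above. Group levels were 33.0 ± 4.63 CPM in the Control libraries (SD, n = 2) and 53.8 ± 15.8 CPM in the variant libraries (SD, n = 3), a log2 fold change of 0.70 (SE 0.25, 95% interval 0.14 to 1.27) and an adjusted p (edgeR) of 0.616. Without variant 2 the value was 0.46. The median of the other genes on chromosome 14 was also high in variant 1 and 2, but it was lowest in variant 3, as given below.

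The aspartate/glutamate carriers SLC25A12 (aralar) and SLC25A13 (citrin) belong to the malate-aspartate shuttle, which brings the reducing power of cytosolic NADH into the mitochondrion. SLC25A12 had 33.7 and 32.4 CPM in the Control libraries and 30.9, 28.0 and 19.9 CPM in variant 1, 2 and 3. Variant libraries were below the Control libraries, mainly through variant 3, and the log2 fold change of −0.33 (SE 0.22, 95% interval −0.82 to 0.15) was −0.17 without variant 3. The median of the other genes on chromosome 2 was also lowest in variant 3, as given below. SLC25A13 had 71.1 and 84.6 CPM (Control) and 80.1, 57.7 and 68.6 CPM (variant), with overlapping groups and a log2 fold change of −0.18. SLC25A13 took between 67.4% (variant 2) and 77.5% (variant 3) of the counts of this pair.

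Glutamate carriers differed in level. SLC25A22 ran from 35.5 to 48.2 CPM with a log2 fold change of 0.18, and it lies at chr11:790475-798333, on the same end of chromosome 11 as SIRT3. In variant 2, where SIRT3 was lowest, SLC25A22 had 36.3 CPM, within its range in the other libraries. SLC25A18 was near the lower end of the table, with 14 and 33 counts in the Control and 32, 30 and 52 counts in the variant libraries. Its log2 fold change was 0.68 (SE 0.45, 95% interval −0.33 to 1.69), and Control 1 set much of it, since it was 0.20 without Control 1 and 1.40 without Control 2. The ornithine carrier SLC25A15 (31.6 to 44.0 CPM), the glycine carrier SLC25A38 (38.1 to 56.1 CPM), which serves haem synthesis, and the branched-chain amino acid carrier SLC25A44 (59.98 to 75.8 CPM) had log2 fold changes of 0.08, 0.10 and 0.14, with overlapping groups.

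Carriers of dicarboxylates and tricarboxylates had 4 measured members, 2 with a positive and 2 with a negative log2 fold change, and no pair of groups that stood apart. The citrate carrier SLC25A1, which exports citrate for fatty acid and sterol synthesis, had 202 and 309 CPM in the Control libraries and 244, 235 and 309 CPM in variant 1, 2 and 3. Control 2 and variant 3 were the high libraries and Control 1 the lowest, and the log2 fold change was 0.04 (SE 0.20, 95% interval −0.42 to 0.49). SLC25A11, the malate/oxoglutarate carrier of the malate-aspartate shuttle, had 166 and 206 CPM (Control) and 190.4, 178 and 162 CPM (variant) and a log2 fold change of −0.07. SLC25A10, the dicarboxylate carrier, was the steadiest member, at 38.8 to 42.4 CPM, with a log2 fold change of −0.03 (interval −0.39 to 0.33). SLC25A21, the oxodicarboxylate carrier, had 6.35 and 6.62 CPM (Control) and 8.61, 8.09 and 4.01 CPM (variant), so that variant 1 and 2 were above the Control libraries and variant 3 below. The acylcarnitine carrier SLC25A20, which feeds fatty acid oxidation, had 16.0 and 19.0 CPM in the Control libraries and 14.6, 10.4 and 16.0 CPM in variant 1, 2 and 3. Variant 2 was the lowest library, Control 1 lay between variant libraries, and the log2 fold change was −0.36 (SE 0.24, 95% interval −0.89 to 0.18). Leaving out variant 2 gave −0.19, and leaving out Control 2 gave −0.22.

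Members related to the uncoupling proteins are SLC25A14, SLC25A27 and SLC25A30. By CPM not divided by length, SLC25A27 was just ahead of SLC25A14. It had 33.2 and 30.3 CPM in the Control libraries and 29.9, 37.0 and 40.5 CPM in variant 1, 2 and 3, with a log2 fold change of 0.17 (SE 0.19, 95% interval −0.26 to 0.60) and overlapping groups. SLC25A14 ran from 28.7 to 40.8 CPM, highest in variant 2, with a log2 fold change of 0.03. SLC25A30 had 16.8 and 16.3 CPM in the Control libraries and 13.6, 15.6 and 10.8 CPM in variant 1, 2 and 3. Variant libraries were all below the Control libraries, variant 2 by little and variant 3 by most, and the log2 fold change of −0.31 (SE 0.22, 95% interval −0.81 to 0.19) was −0.18 without variant 3.

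The mitoferrins bring iron into the matrix for haem and iron-sulfur clusters. SLC25A37 had 51.8 and 39.9 CPM in the Control libraries and 42.7, 45.4 and 43.5 CPM in variant 1, 2 and 3. The Control libraries enclosed the variant libraries, and the log2 fold change was −0.06 (SE 0.18, 95% interval −0.46 to 0.33). SLC25A28 had 37.9 and 38.5 CPM (Control) and 31.2, 39.2 and 34.2 CPM (variant), also overlapping, with a log2 fold change of −0.13 (interval −0.53 to 0.26). SLC25A37 held 50.9% to 57.8% of the counts of the pair, the bounds being Control 2 and Control 1.

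All 5 measured carriers of cofactors had a negative log2 fold change, with no group apart and a smallest adjusted p of 0.870. SLC25A17, a peroxisomal member that carries coenzyme A and related cofactors, had 68.0 and 96.5 CPM in the Control libraries and 79.2, 56.9 and 87.1 CPM in variant 1, 2 and 3. Variant 2 was lowest and Control 2 highest, and the log2 fold change was −0.14 (SE 0.22, 95% interval −0.64 to 0.36). Coenzyme A carriers of the mitochondrion, SLC25A42 (24.0 to 31.3 CPM) and SLC25A16 (23.2 to 29.7 CPM), had log2 fold changes of −0.11 and −0.14. The S-adenosylmethionine carrier SLC25A26 (15.8 to 21.3 CPM) had a log2 fold change of −0.08.

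Glutathione enters the mitochondrion through SLC25A39, with SLC25A40 as its close relative. SLC25A39 had 269 and 309.7 CPM in the Control libraries and 283, 322 and 302 CPM in variant 1, 2 and 3, overlapping between groups, with a log2 fold change of 0.06 (SE 0.14, 95% interval −0.25 to 0.38). SLC25A40 had 19.4 and 15.1 CPM in the Control libraries and 13.7, 12.6 and 12.8 CPM in variant 1, 2 and 3. Variant libraries were all below the Control libraries, with a log2 fold change of −0.40 (SE 0.21, 95% interval −0.87 to 0.07) and an adjusted p (edgeR) of 0.676. It became −0.09 after the GC and length correction and −0.21 without Control 1.

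For the 7 members without a settled substrate, 3 log2 fold changes were positive and 4 negative. SLC25A46, which sits in the outer membrane and takes part in mitochondrial shape, led by level with 95.3 and 77.9 CPM in the Control libraries and 72.6, 75.8 and 71.6 CPM in variant 1, 2 and 3. Control 1 stood above the other 4 libraries, which lay close together. Its log2 fold change was −0.24 (SE 0.16, 95% interval −0.60 to 0.12), and after the correction it was 0.08, with the opposite sign. Without Control 1 it was −0.09. SLC25A34 had 1.92 and 2.34 CPM in the Control libraries and 3.18, 3.90 and 4.01 CPM in variant 1, 2 and 3. Variant libraries were all higher, by a log2 fold change of 0.79 (SE 0.31, 95% interval 0.09 to 1.497) with an adjusted p (edgeR) of 0.627, on 33 and 41 counts in the Control and 55, 68 and 71 counts in the variant libraries.

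SLC25A43 varied most between libraries. It had 17 and 43 counts in Control 1 and 2 and 3, 52 and 9 counts in variant 1, 2 and 3, so the variant group held both the lowest and the highest value. Its log2 fold change of −0.49 (SE 0.91, 95% interval −2.59 to 1.60) rests on few counts. SLC25A35 (11.4 to 17.2 CPM), SLC25A45 (5.89 to 11.9 CPM), SLC25A48 (1.28 to 3.21 CPM) and SLC25A53 (4.39 to 7.35 CPM) had log2 fold changes of −0.19, 0.24, 0.48 and −0.05, with overlapping groups.

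Between genes, levels were compared per length, as mean CPM over the 5 libraries per kilobase of the principal GENCODE transcript. On that scale the order was SLC25A5 (403 CPM per kilobase), SLC25A6 (331), SLC25A3 (258), SLC25A39 (185), SLC25A1 (158) and SLC25A11 (95.2). SLC25A5 and SLC25A6 exchange places when raw CPM is used, and the CPM of the pair overlapped in range. After a gap came SLC25A17 (34.3) and SLC25A23 (33.6). SLC25A4 stood at 15.1, for an annotated transcript of 4440 bases. The lowest were SLC25A18 (0.821) and SLC25A43 (0.511).

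The spread between libraries of a group moved in part with the chromosome a member lies on. The deviation of a gene is its log2 CPM in a library minus its mean over the 5 libraries, and each was set beside the median deviation of the other genes on its chromosome with a mean log2 CPM above 3. On chromosome X all 5 members were highest in variant 2, SLC25A6 by little (761 CPM, against 745 CPM in variant 1). Deviations of SLC25A5 were −0.28 and 0.12 in Control 1 and 2 and −0.33, 0.57 and −0.09 in variant 1, 2 and 3, and those of SLC25A14 were 0.02 and −0.04 in Control 1 and 2 and −0.20, 0.31 and −0.09 in variant 1, 2 and 3. The chromosome X median over 361 genes was 0.00028, −0.05, −0.08, 0.19 and −0.06 in the same order, so variant 2 was the high library there too. Deviations of SLC25A6 were −0.15 and −0.28 in Control 1 and 2 and 0.14, 0.17 and 0.12 in variant 1, 2 and 3. In variant 1 and 3, SLC25A6 was thus above 0 where the median was below 0. SLC25A43 (chrX:119399060-119454478) lies close to SLC25A5 and, like it, was highest in variant 2, then in Control 2, and lowest in variant 1.

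On chromosome 22, SLC25A1 had deviations of −0.34 and 0.27 in Control 1 and 2 and −0.07, −0.12 and 0.27 in variant 1, 2 and 3, and SLC25A17 had −0.17 and 0.34 in Control 1 and 2 and 0.05, −0.42 and 0.19 in variant 1, 2 and 3. The chromosome median over 274 genes was −0.27, 0.18, 0.11, −0.23 and 0.21, with the same libraries above and below 0 except for SLC25A1 in variant 1. On chromosome 14, SLC25A29 had −0.26 and −0.54 in Control 1 and 2 and 0.26, 0.70 and −0.16 in variant 1, 2 and 3, and SLC25A21 had −0.04 and 0.02 in Control 1 and 2 and 0.40, 0.31 and −0.69 in variant 1, 2 and 3, beside a median of −0.17, −0.17, 0.30, 0.28 and −0.25 over 367 genes. Variant 1 and 2 were above 0 and variant 3 below 0 for each of these. For SLC25A29, however, variant 3 lay above both Control libraries, while the chromosome median was lowest in variant 3. On chromosome 9, SLC25A25 had −0.48 and 0.0019 in Control 1 and 2 and −0.36, 0.25 and 0.59 in variant 1, 2 and 3, beside −0.21, −0.19, −0.05, 0.28 and 0.22 over 432 genes. SLC25A12 on chromosome 2 had 0.24 and 0.19 in Control 1 and 2 and 0.12, −0.03 and −0.51 in variant 1, 2 and 3. The median there, over 722 genes, was 0.12, 0.05, 0.05, 0.03 and −0.27. These members are a selection, and not all members went with their chromosome. SLC25A27 on chromosome 6 had −0.18 in variant 1, where the median was 0.12. SLC25A15 on chromosome 13 had 0.25 in variant 2, where the median was −0.08.

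Over the 35 members with a mean log2 CPM above 3, which give 175 points, Pearson's r between the member's and the chromosome's deviation was 0.608 and Spearman's rho 0.535. For the 10796 other genes above that level it was 0.398 and 0.388. Points of a library share that library, and the 5 deviations of a gene add up to 0, so these are descriptions. With the chromosome medians taken out as offsets, the median within-group SD of all 41 members went from 0.198 to 0.160 on the log2 scale. That of all genes above the level went from 0.198 to 0.176. Members below the level enter the first of these SDs only. The log2 fold change of SLC25A25 was then 0.07 in place of 0.43, and that of SLC25A29 0.40 in place of 0.70. SLC25A6 had 0.31, SLC25A34 0.84 and SLC25A33 −0.38, close to their uncorrected values. The groups did not overlap at 10 members (24.4%) after this step, against 23.7% of all genes.

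**Figure D4:**
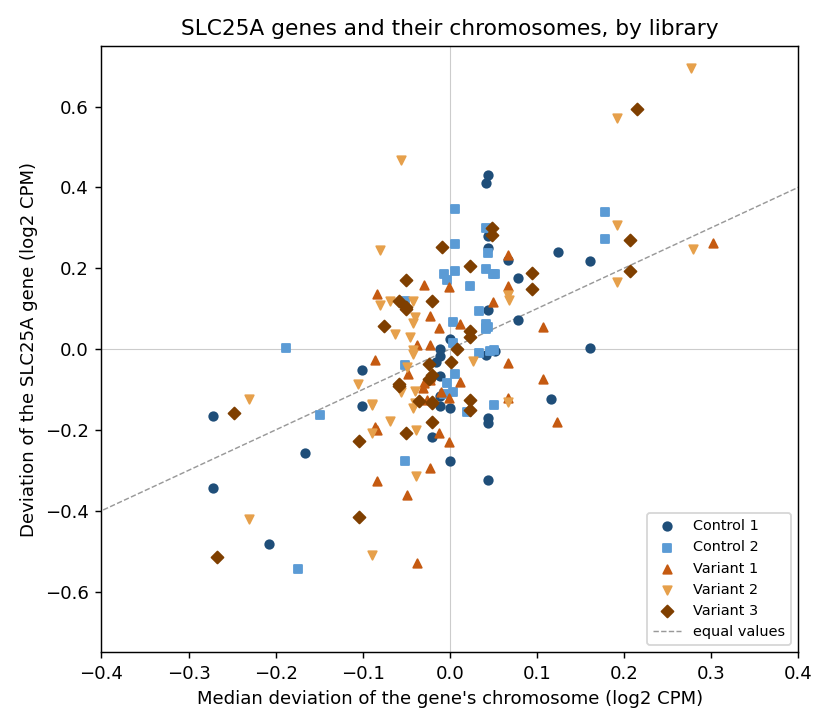
Deviation of each SLC25A gene with a mean log2 CPM above 3 (vertical) against the median deviation of the other genes on its chromosome (horizontal), 1 symbol per gene and library, 175 points, with a dashed line where both are equal. Points lean along the line (Pearson's r 0.608), with variant 2 values of SLC25A29 on chromosome 14 and SLC25A5 on chromosome X at the upper right.

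Base composition also moved with the libraries. Across the same 35 members, Spearman's rho between GC content of the longest transcript and the deviation was −0.597 in Control 1, 0.018 in Control 2, −0.008 in variant 1, 0.233 in variant 2 and 0.525 in variant 3. For the 10796 other genes it was −0.529, 0.067, −0.123, 0.243 and 0.470, so the members followed the table. The 4 members lowest in GC among them, SLC25A46 (32.1%), SLC25A40 (34.2%), SLC25A36 (37.3%) and SLC25A24 (38.7%), were each highest in Control 1. With the log2 fold change, rho was 0.571 over the members and 0.402 over the other genes. After the GC and length correction, groups without overlap were left at 7 members (17.1%), against 23.1% of all genes. SLC25A23 and SLC25A34 were higher there, and SLC25A20, SLC25A33, SLC25A35, SLC25A40 and SLC25A42 were lower. Only SLC25A23, SLC25A34, SLC25A33 and SLC25A40 were without overlap in the uncorrected values and after each of these corrections. The share of all tested genes that meet this joint rule was not counted, so there is no base share to set beside them.

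Other proteins that carry solutes across the mitochondrial membranes were taken from a list of 32 genes, of which 30 were tested. None of the 30 had an adjusted p under 0.05. Their median log2 fold change was −0.06, with 11 positive and 19 negative values. At an unadjusted p under 0.05 there were 3 higher and 3 lower genes of the 30, where 4.11% of all tested genes were higher and 3.51% lower. The higher were UCP3, an uncoupling protein (log2 fold change 1.10, SE 0.34), CPT1A, which makes acylcarnitines at the outer membrane (0.59, SE 0.23), and MTCH1, an outer membrane protein of the same carrier fold (0.31, SE 0.14). The lower were MCUB, a subunit of the calcium uniporter (−0.47, SE 0.18), MPC2 of the pyruvate carrier (−0.47, SE 0.19), and VDAC3, a channel of the outer membrane (−0.38, SE 0.16). Adjusted p-values of these 6 genes in edgeR's test lay between 0.616 and 0.655. Groups were without overlap at 12 of the 30 genes, 3 higher and 9 lower, or 40% against the 24.8% of all tested genes.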

How the data were processed

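Counts of RNA-seq reads per gene were used as deposited. The submitters' processing notes name HISAT2, SAMtools, HTSeq and hg38, and the labels' protocols name single-end reads of 50 bases from a strand-specific library. Annotation and strand use in counting are not given in the sources used here. The lowest count in the table is 3, so genes silent in a library are not among its rows. Total counts were 17122569 to 17596084.

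Groups were compared with edgeR 4.0.16 (R 4.3.3) by the quasi-likelihood test with TMM scaling, filterByExpr and Benjamini-Hochberg adjustment over 16310 genes. The scripts were tested on simulated data. Log2 CPM used a prior count of 2. Positions and transcripts came from GENCODE 29 (GRCh38), promoters from RefSeq. Alternatives were DESeq2 1.42.0, limma-voom 3.58.1, other scalings and filters, a replicate block, each library left out, and offsets for GC content and length. Offsets by chromosome were chosen after seeing the data. Members, substrate groups and lists were chosen with earlier results of these data known. Per-library values are given for the 12 members with the smallest p, for the member with the highest CPM in each group, and for some others chosen after their values were seen. 1 member enters all counts but is not reported here by name.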

Additional observations from a re-analysis of the deposited data

How the results depend on the processing

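No SLC25A gene passed an adjusted p of 0.05 in any alternative. Over all tested genes the count was 0 with edgeR and 32 with DESeq2 (25 higher, 7 lower), and 3 when the GC and length correction went with the replicate block. Leaving out 1 library gave 0 to 4 genes, with 1 without Control 1 and 4 without variant 3. The members' median log2 fold change of −0.04 lay between −0.061 and 0.091 with 1 library left out, and it was positive without Control 2. Of 300 values for named members under the alternatives, 285 kept their direction and 15 reversed. The cause of these changes was not tested.

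SLC25A1 reversed to −0.063 with the replicate block, −0.034 with the GC and length correction, −0.055 with both and −0.013 with chromosome offsets, and its range with 1 library left out was −0.24 to 0.38. SLC25A46 was 0.083 with the GC and length correction and 0.040 with the block added. SLC25A36 was 0.012 with both and ran from −0.30 to 0.0084 with 1 library left out. SLC25A37 was 0.012 with chromosome offsets and ran from −0.24 to 0.13. The corresponding ranges were −0.38 to 0.13 for SLC25A17 and −0.035 to 0.17 for SLC25A39. Without a change of direction, SLC25A13 ran from −0.30 (without variant 1) to −0.05 (without Control 2), and SLC25A27 from 0.07 (without variant 3) to 0.29 (without variant 1).

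Whether replicate numbers pair the libraries cannot be told from the correlations between them. Over 16310 genes, deviations of Control 1 from its group mean had correlations of 0.120, 0.113 and −0.221 with variant 1, 2 and 3. With 2 Control libraries, deviations of Control 2 mirror those of Control 1. Its correlations have the same size and opposite sign and add no second check. With the numbers as a block, 0 genes were called and 1557 had an unadjusted p under 0.05. Replicate 3 is in the variant group only, so in this fit variant 3 adds nothing to the difference between the groups. SLC25A43 was left out where at least 10 counts were asked of every library. Depth limits the members with few counts, SLC25A43 (3 to 52 counts a library) and SLC25A18 (14 to 52) among them.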
